A study of Drosophila melanogaster with 2 samples.

Results

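Narrow H3K9me2 dips are short stretches in which the control library drops to a few sequenced tags between well covered neighbours. Dimethylation of lysine 9 on histone H3 (H3K9me2) marks repressive chromatin and is densest in heterochromatin. Along genes the signal of such a mark is uneven, because promoters and gene ends can be poor in nucleosomes. EHMT, also called G9a, is an enzyme that writes this mark in euchromatin in flies. The dips were selected on the EHMT+ tag counts alone. The arms used were 2L, 3L, 3R and X, each shortened by 1 Mb where it nears the centromere. They were divided into bins of 300 bp, and a tag counted in all bins that it touched. A dip bin had 1 to 10 EHMT+ tags, while the bins 3 places before and 3 places after it, called flanks here, both had 25 or more. This rule found 922 dip bins among 312895 bins, or 0.295%, and adjacent dip bins joined to 819 dips.

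The study compared EHMTDD1, a viable deletion strain made by imperfect excision of a P-element in EHMT and lacking the translation start, with EHMT+, a precise excision of the same element that carries no deletion and shares its genetic background. Whole larvae of the third instar were used, so all tissues are mixed, and the sex of the larvae is not given in the sources used here. Each genotype was 1 strain and gave 1 ChIP-seq library, so the differences below could not be checked on replicates and carry no p-value. Both libraries hold 7043913 tags, since the authors equalized them, with 5015303 tags of EHMTDD1 and 5063556 tags of EHMT+ on these arms. The median was 28 tags per bin in each library. Intervals are 95% intervals for counting error only, and those for shares (Wilson) treat bins as independent although adjacent bins share tags. Those for ratios of sums count a tag once for each bin it touches, so they can be too narrow. No input or total H3 library was used. A low count therefore cannot be told apart as less H3K9me2, fewer nucleosomes, fewer cells with the mark or a sequence that maps poorly. The position of the EHMT deletion and of genes in this build (Release 5) was not used here, so the labels were not checked against the deletion and no dip is given a gene or a sequence.

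Dips lay on all 4 arms, most densely on X. X had 259 dip bins, 12.1 per Mb (Poisson interval 10.7 to 13.7), and 3R had the fewest, 198 or 7.36 per Mb (6.37 to 8.46). Between them were 3L with 244 dip bins (10.4 per Mb, 9.11 to 11.7) and 2L with 221 (10.04 per Mb, 8.76 to 11.5). The intervals of X and 3R did not overlap, whereas those of 2L, 3L and X did. Other bins with 1 to 10 EHMT+ tags were also most frequent on X, at 2.27% of its bins, and least on 3R, at 1.60%, so this order is not particular to the dips. Among all bins with a tag the EHMT+ median was 31 on X and 28 or 29 on the other arms. With each arm cut into 3 stretches of equal length, the middle stretch held 364 dip bins (0.349%, 0.315 to 0.387%), the centromeric stretch 307 (0.294%, 0.263 to 0.329%) and the telomeric stretch 251 (0.241%, 0.213 to 0.272%).

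Members lay mostly near the upper limit of the count. Of the 922 bins, 293 had exactly 10 EHMT+ tags and 16 had 1 tag. Just inside the limit, the bins with 10 EHMT+ tags had a median of 10 EHMTDD1 tags, and just outside it 423 bins with 11 EHMT+ tags and the same flanks had a median of 11. At the flank limit, 143 dip bins had a smaller flank of 25 tags, with a median of 7 EHMTDD1 tags. Another 169 bins with 1 to 10 EHMT+ tags and a smaller flank of 24 tags had a median of 10. EHMTDD1 thus changed little across the count limit and was lower just inside the flank limit than just outside it.

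The narrow outline of the dips in EHMT+ follows in large part from the rule, which demands a low bin between high flanks. The medians below are over all dip bins, so like values on either side do not show that each dip has even sides. The median EHMT+ count was 9 tags in the dip bin, 16 and 15 in the bins next to it on the low and the high coordinate side, 29 and 28 in the second bins, and 32 in both flanks. The flanks were fixed by the rule to be at least 25. Outside them, from 1500 to 3000 bp away, medians were 28 to 30 tags, close to the 28 tags of all bins. Counting the consecutive bins below 0.5 of the mean of the flanks, 181 dip bins were 1 bin wide, 405 were 2, 252 were 3 and 84 were 4 or more. As dips, 718 of the 819 held a single dip bin, 99 held 2 and 2 held 3.

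**Figure D1:**
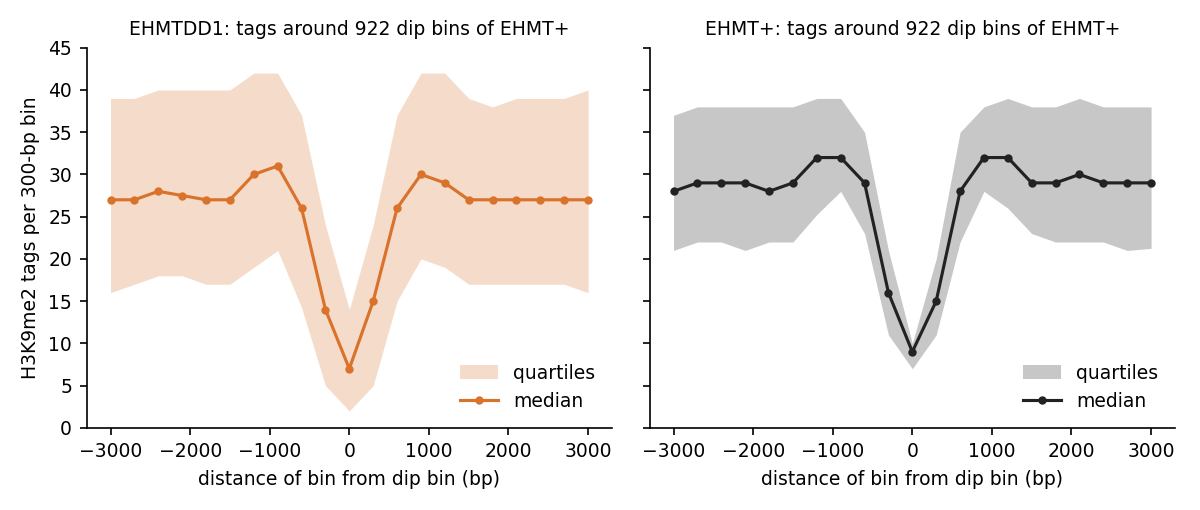
Tags per 300-bp bin (y axis) against the distance of the bin from the dip bin (x axis, bp), for EHMTDD1 (left) and EHMT+ (right). Lines are medians and bands the quartiles over the 922 dip bins; the median falls to 7 tags in EHMTDD1 and 9 in EHMT+ at the dip bin, with the wider band in EHMTDD1.

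The mutant library had a dip at the same place. The EHMTDD1 counts were not used by the rule, and their median was 7 tags in the dip bin (quartiles 2 and 14), 14 and 15 in the bins next to it, 26 in both second bins and 31 and 30 in the flanks. Summed over the 922 bins, EHMTDD1 had 8258 tags in the dip bins and 60779 in the 2 flanks, a ratio of bin to mean flank of 0.272 (0.266 to 0.278, exact conditional binomial). The ratio in EHMT+, which the rule forced to be low, was 0.220 (0.215 to 0.226). Other bins with equally high EHMT+ flanks but more than 10 EHMT+ tags, 143698 in all, had a ratio of 0.955 (0.954 to 0.956) in EHMTDD1. Taken singly, 705 dip bins (76.5%, 73.6 to 79.1%) were below 0.5 of their own flanks in EHMTDD1, against 18.0% (17.8 to 18.2%) of those other bins. The dip of the control was thus also measured in the mutant at these 705 dip bins.

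Read starts gave the same outline on both strands. In 50-bp steps around the centre of the dip bins, EHMTDD1 read starts on the plus strand were below 0.5 of the outer level from 400 bp before to 250 bp after the centre, and on the minus strand from 300 bp before to 400 bp after. EHMT+ had the corresponding stretches from 450 bp before to 250 bp after and from 250 bp before to 450 bp after. The lowest step held 15.2% (plus) and 16.5% (minus) of the outer level in EHMTDD1, and 14.9% and 15.3% in EHMT+. The plus-strand counts of EHMT+ stepped from 968 to 575 starts at 450 bp before the centre, where tags begin to reach the dip bin. EHMTDD1 passed the same point more smoothly, with 795 and 649 starts. The 50-bp step in EHMT+ lies where the rule sets in, and the EHMTDD1 outline does not carry it.

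Depth varied far more in EHMTDD1 than in EHMT+, where the rule limits it. The ratio of the bin to its flanks had quartiles of 0.0697 and 0.478 in EHMTDD1, with a median of 0.216, and quartiles of 0.179 and 0.303 in EHMT+, with a median of 0.25. In the other bins with high EHMT+ flanks the quartiles were 0.609 and 1.325 in EHMTDD1, against 0.730 and 1.13 in EHMT+. Among all bins with a tag, the tag count had quartiles of 18 and 40 in EHMTDD1 and of 22 and 38 in EHMT+. A wider spread in EHMTDD1 is thus not particular to the dips. Below a ratio of 0.1 were 299 dip bins in EHMTDD1 and 96 in EHMT+. At the other end, 172 dip bins (18.7%) had a ratio from 0.5 to 1 in EHMTDD1 and 45 (4.88%) had no dip at all, with a ratio of 1 or more. These shares were 36.4% and 45.6% in EHMTDD1 for the other bins with high EHMT+ flanks. No dip bin reached 0.5 in EHMT+, as the rule requires. Dip bins were lower relative to their flanks in EHMTDD1 than in EHMT+ in 453 of 922 cases (49.1%). As the rule chose the EHMT+ ratio to be low, this share says nothing of a direction of change.

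**Figure D2:**
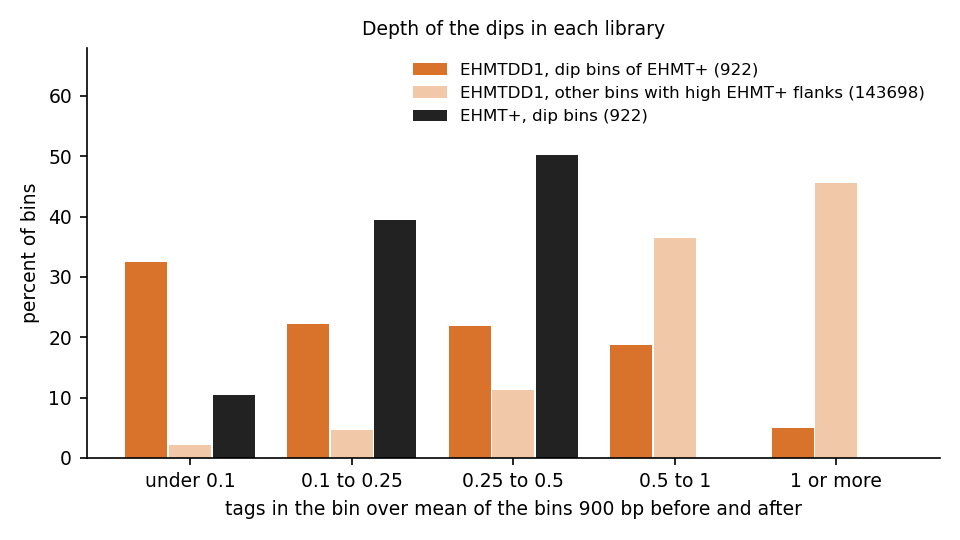
Percent of bins (y axis) by the ratio of tags in the bin to the mean of the bins 900 bp before and after (x axis, 5 classes). In EHMTDD1, 32.4% of the 922 dip bins were under 0.1 and 23.5% were at 0.5 or more, against 10.4% and 0% in EHMT+; of the 143698 other bins with high EHMT+ flanks, 2.15% were under 0.1 in EHMTDD1.

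Wide runs lay around more dip bins in EHMTDD1 than in EHMT+, where the rule limits them, and the median width was 2 bins in both libraries. The mean width was 2.43 bins in EHMTDD1 and 2.27 in EHMT+. In EHMTDD1, 217 dip bins had width 0, and the shares below are of all 922 dip bins. A run of 4 or more bins below 0.5 of the flanks was found around 230 dip bins (24.9%, 22.3 to 27.8%) in EHMTDD1 and around 84 (9.11%, 7.42 to 11.1%) in EHMT+. A run of 6 or more bins was found around 47 dip bins in EHMTDD1 and around 1 in EHMT+. The rule keeps EHMT+ dips narrow by demanding high flanks, so the widths of the 2 libraries are not on an equal footing. Widths and the place of the lowest bin are not given here for other bins. The counts in this paragraph thus have no background share beside them. The lowest of the 7 bins from flank to flank was the dip bin itself in 490 cases (53.1%, 49.9 to 56.4%) in EHMTDD1 and in 753 (81.7%) in EHMT+, and it was the dip bin or a bin next to it in 800 cases (86.8%) in EHMTDD1.

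EHMTDD1 followed the EHMT+ count from bin to bin, with a wide spread. Dip bins with 1 EHMT+ tag had a median of 1 EHMTDD1 tag, those with 5 had a median of 3, and those with 10 had a median of 10. Over the 922 bins Pearson's r was 0.34 and Spearman's rho 0.34, a description of bins that share a library and sequence and are not replicates. The highest EHMTDD1 count was 43 tags, in a bin with 8 EHMT+ tags. EHMTDD1 had no tag in 101 dip bins (10.95%, 9.10 to 13.1%), in each of which a count of 0 allows up to 3 tags. The share was 0.691% among all bins with a tag and 16.8% among the other bins with 1 to 10 EHMT+ tags. At 6 to 10 EHMT+ tags it was 8.0% of dip bins and 5.7% of other bins, and at 1 to 5 it was 25.3% and 37.3%.

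**Figure D3:**
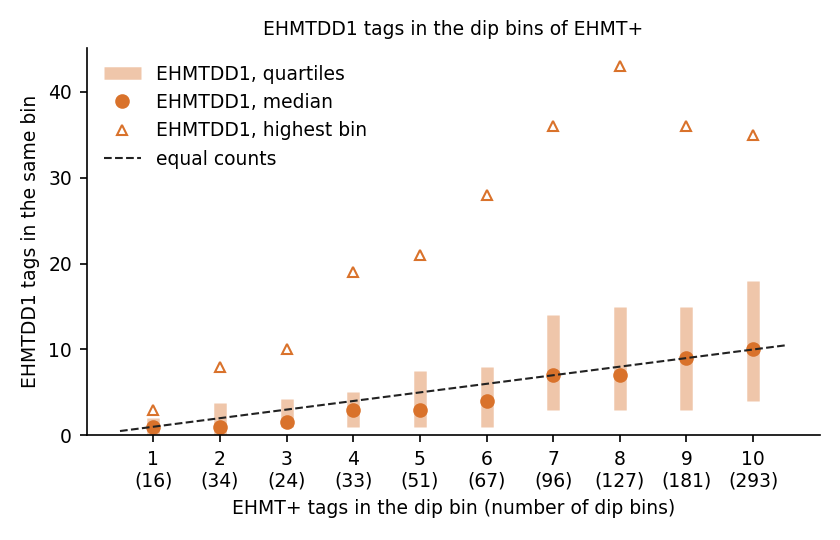
EHMTDD1 tags (y axis) in the dip bins, grouped by their EHMT+ tags (x axis, with the number of dip bins in brackets). Circles are medians, bars the quartiles, triangles the highest bin and the dashed line equal counts; the EHMTDD1 median is at or below the line in every group, while single bins reach 43 tags.

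To ask whether EHMTDD1 deepens or fills the dips, 1 was added to both counts, and a bin was called halved where EHMTDD1 was at or below 0.5 times EHMT+ and doubled where it was at or above 2 times EHMT+. Of the 922 dip bins, 289 were halved (31.3%, 28.4 to 34.4%), 161 were doubled (17.5%, 15.15 to 20.05%) and 472 were neither. Among all 301935 bins with a tag, 13.7% were halved and 3.00% doubled. That background has more tags per bin and so a narrower ratio. A closer one is the 5956 other bins with 1 to 10 EHMT+ tags that lack the high flanks, of which 32.6% were halved and 18.3% doubled. Both of these shares lay inside the intervals of the dip bins, but the dip bins have fewer of the lowest EHMT+ counts, and the shares differ with that count.

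The summed counts and the medians pointed different ways. EHMTDD1 had 8258 tags in the dip bins and EHMT+ had 7192, a ratio of 1.15 (1.11 to 1.18), while the median log2 ratio of EHMTDD1 to EHMT+ was −0.14. The EHMT+ sum was chosen to be low. In the other low bins the ratio of sums was 1.23 (1.22 to 1.25) and the median log2 ratio 0.00. The comparison with other low bins turned with the EHMT+ count. The 158 dip bins with 1 to 5 EHMT+ tags had a ratio of sums of 0.998 (0.884 to 1.13), with 38.6% halved (31.4 to 46.4%) and 15.2% doubled (10.4 to 21.6%). Of the 2097 other bins with 1 to 5 EHMT+ tags, 47.3% were halved (45.1 to 49.4%) and 15.6% doubled. The 764 dip bins with 6 to 10 EHMT+ tags had a ratio of 1.16 (1.12 to 1.20), with 29.8% halved (26.7 to 33.2%) and 17.9% doubled (15.4 to 20.8%). Of the 3859 other bins with 6 to 10 EHMT+ tags, 24.7% were halved (23.3 to 26.1%) and 19.8% doubled (18.6 to 21.1%). The halved share of the dips was thus higher than that of other low bins at 6 to 10 EHMT+ tags, with intervals that did not overlap, and lower at 1 to 5, with intervals that did. This split was added after the data were seen, and the other bins lack the high flanks. As adjacent bins also share tags, the comparison is a description and not a test. Median EHMT+ counts were 9 in both groups at 6 to 10 tags, and 4 in the dip bins and 3 in the other bins at 1 to 5. The doubled share of the dips had intervals that took in the share of the other bins in both ranges.

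Few tags limit what a single bin can show. The exact interval of the ratio of EHMTDD1 to EHMT+ lay below 1 in 113 dip bins (12.3%, 10.3 to 14.5%) and above 1 in 102 (11.1%, 9.20 to 13.3%), and it included 1 in the other 707. In all bins with a tag, 14.8% were below 1 and 8.82% above, and in the other bins with 1 to 10 EHMT+ tags 7.25% were below and 10.2% above. A bin with 5 or fewer EHMT+ tags cannot fall below 1 on this measure. At 6 to 10 EHMT+ tags, 14.8% of the dip bins (12.4 to 17.5%) were below 1, against 11.2% of the other bins (10.2 to 12.2%). Above 1 at these counts were 12.7% of the dip bins (10.52 to 15.25%), against 13.1% of the other bins.

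The study calls bins with a marked loss in the mutant loss of methylation bins. With limits set over the 312895 bins of these 4 arms, at 2 SD from the mean log2 ratio of −0.17, this took a log2 ratio of EHMTDD1 to EHMT+ below −1.89, and 5.07% of bins passed. This cut-off, 3.70-fold with the pseudocount, is lower than the study's and covers other bins, so the share is not a repeat of the study's. Of the dip bins, 116 passed (12.6%, 10.6 to 14.9%), against 12.2% (11.4 to 13.1%) of the other bins with 1 to 10 EHMT+ tags. At 6 to 10 EHMT+ tags these shares were 12.4% and 11.1%, and at 1 to 5 they were 13.3% and 14.3%. The bins next to the dip bin reached similar shares, 124 (13.4%, 11.4 to 15.8%) on the low coordinate side and 123 (13.3%, 11.3 to 15.7%) on the high side. The second bins had 8.24% and 9.65%, and the flanks 5.75% and 7.48%. Tags that overlap both the dip bin and its neighbour are counted in each, so these shares are not independent, whereas the second bins share no tag with the dip bin.

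The 3 classes of dip bins had like medians in EHMT+ and differed in EHMTDD1 most at the centre, where the classes are set. Halved bins had a median of 1 EHMTDD1 tag and 8 EHMT+ tags, bins in neither class 8 and 9, and doubled bins 22 and 8. At 2 bins away, where no tag is shared, halved bins had medians of 20 and 21 EHMTDD1 tags, against 28 and 27 EHMT+ tags. Doubled bins there had 27 EHMTDD1 tags on both sides, against 29 and 27 EHMT+ tags. The flanks of the halved class held 0.878 times as many tags in EHMTDD1 as in EHMT+ (0.861 to 0.896), and those of the doubled class 0.957 times (0.931 to 0.983). Over all 922 dip bins these ratios were 0.947 in the flank before and 0.914 in the flank after. The rule chose the EHMT+ flanks to be high, so a ratio below 1 there does not by itself show a loss. In the 289 halved bins the median EHMTDD1 counts in the flanks were 30 and 28 tags, against 34 and 33 in EHMT+.

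**Figure D4:**
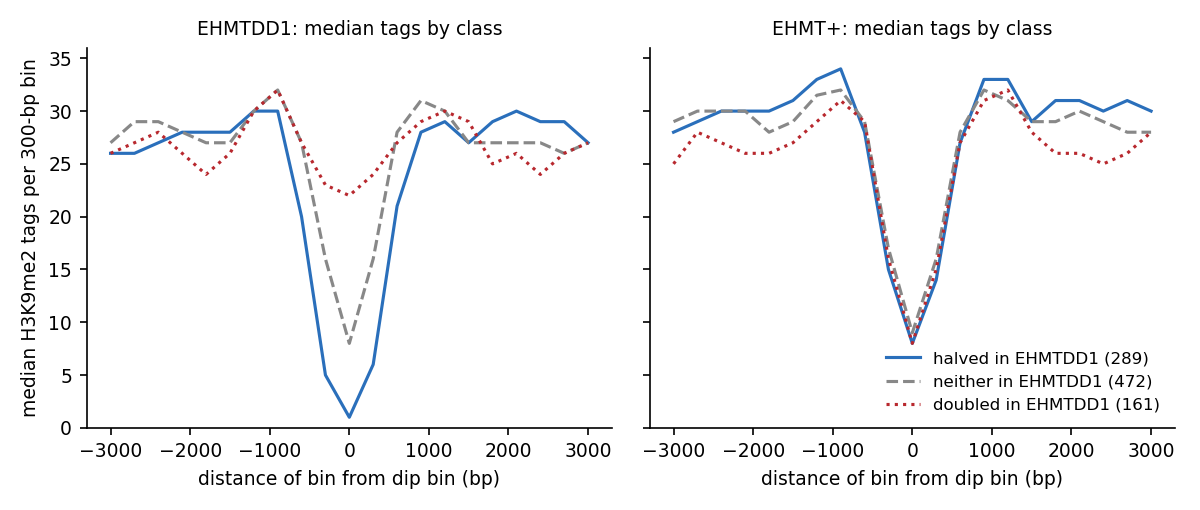
Median tags per 300-bp bin (y axis) against distance from the dip bin (x axis, bp) in EHMTDD1 (left) and EHMT+ (right), for dip bins halved (289), doubled (161) or neither (472) in EHMTDD1. The classes are set by the dip bin itself, where the EHMTDD1 medians are 1, 22 and 8 tags; the EHMT+ lines at the dip bin stand at 8, 8 and 9.

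Bins that met the whole rule in EHMTDD1 as well were a minority. Of the 922 dip bins, 234 (25.4%, 22.7 to 28.3%) had 1 to 10 EHMTDD1 tags and both EHMTDD1 flanks at 25 or more, against 2.72% of all bins. These 234 were 2.75% of the 8510 bins that met the rule in EHMTDD1, 9.23 times as many as in EHMT+. In the 8510 bins EHMTDD1 had a median of 6 tags, fixed by the rule, while EHMT+ had a median of 23 (quartiles 18 and 31). In 508 dip bins at least 1 flank was under 25 EHMTDD1 tags, whereas the rule set the EHMT+ flanks at 25 or more. Of these, 267 had 1 to 10 EHMTDD1 tags in the bin and so failed at a flank only. The bin itself failed as well in 66 with no EHMTDD1 tag and in 175 with more than 10. Another 35 had high flanks and no EHMTDD1 tag, and 145 had high flanks and more than 10 EHMTDD1 tags. Irrespective of the flanks, 602 dip bins (65.3%, 62.2 to 68.3%) had 10 or fewer EHMTDD1 tags, against 8.62% (8.48 to 8.77%) of the other bins with high EHMT+ flanks.

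The dips held stretches without any read, often the same in both libraries. Within the 900 bp of a dip bin and its neighbours, the longest stretch not covered by a 36-bp read had a median of 396 bp in EHMTDD1 and 218 bp in EHMT+. In the other bins with high flanks these medians were 102 bp in EHMTDD1 and 50 bp in EHMT+. Neither library had a read over 400 bp or more around 197 dip bins (21.4%, 18.8 to 24.1%), against 0.116% (0.0992 to 0.135%) of the other bins with high flanks. Because dip bins were chosen for few EHMT+ tags and the other bins have more than 10, the EHMT+ and shared stretches are in large part set by the rule, and these figures are a description.

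Such stretches moved with the depth of the dip in EHMTDD1, and also with the EHMT+ count. The 221 dip bins with 400 bp or more without an EHMT+ read had a ratio of bin to flanks of 0.140 (0.132 to 0.148) in EHMTDD1, and 204 of them (92.3%) were below 0.5 of their flanks. The 359 dip bins whose longest such stretch was at least 100 bp and under 200 bp had a ratio of 0.345 (0.334 to 0.358), and 244 of them were below 0.5. Median EHMT+ counts were 5 tags in the 221 and 9 in the 359, with EHMTDD1 medians of 3 and 8. The groups are cut on EHMT+ reads, which the rule also used, so they compare deeper with shallower dips of the control. Without the 221 bins the ratio over all dip bins was 0.323 (0.315 to 0.331). Halved shares were 36.2% (30.2 to 42.7%) in the 221 and 29.5% (25.0 to 34.4%) in the 359, with overlapping intervals. Unique mapping can leave such stretches, and its part in the dips was not tested.

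On 3R the dips held more EHMTDD1 tags than on the other arms. The median was 10 EHMTDD1 tags in the 198 dip bins of 3R, against 9 EHMT+ tags. On 2L, 3L and X the EHMTDD1 medians were 7, 5 and 6 tags, with EHMT+ medians of 9, 9 and 8. Doubled bins made up 24.7% (19.3 to 31.2%) on 3R, 13.6% (9.68 to 18.7%) on 2L, 15.2% (11.2 to 20.2%) on 3L and 17.4% (13.2 to 22.5%) on X. The interval of 3R was above that of 2L and overlapped those of 3L and X. Other bins with 1 to 10 EHMT+ tags followed the same order of 3R first, with 21.9% doubled on 3R and 16.2 to 17.9% on the other arms. Within 2L the EHMTDD1 median was 12 tags in the telomeric stretch, 7 in the middle and 4 in the centromeric stretch, with EHMT+ medians of 9, 8 and 9 there. The other arms did not share this order as a whole, with EHMTDD1 medians of 8, 5 and 5 on 3L, 9.5, 8 and 11 on 3R, and 5.5, 6 and 5.5 on X.

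Neighbouring dips were mostly far apart compared with their width. Over 815 distances from the start of a dip to the start of the next on its arm, the median was 78600 bp (70500 to 85800 bp, from the ranks) and the quartiles were 31500 and 151500 bp. The mean was 113971 bp and the SD 119529 bp, and distances ran from 600 to 1022100 bp. Only 12 distances (1.47%) were within 2 kb and 76 (9.33%) within 10 kb. The median was longest on 3R, at 94200 bp (82500 to 124200 bp), and shortest on 3L, at 67650 bp (54300 to 87900 bp), with overlapping intervals.

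**Figure D5:**
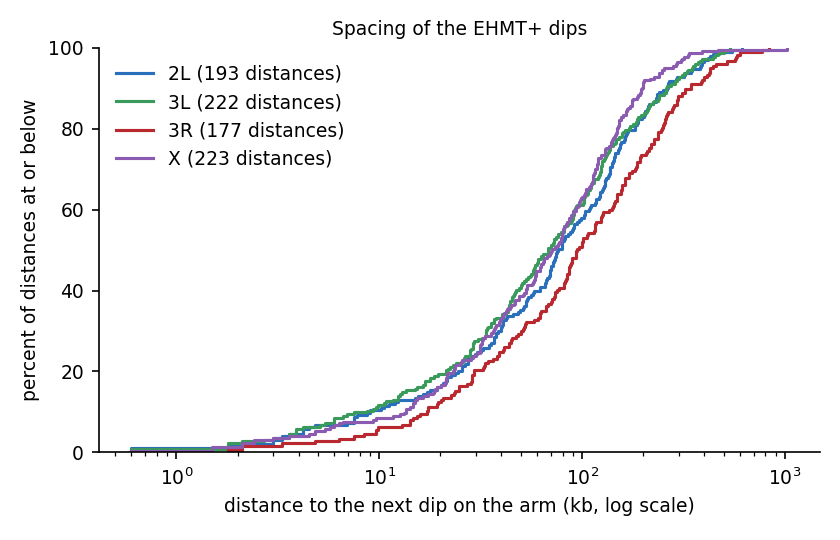
Cumulative percent of distances (y axis) between the starts of neighbouring dips on an arm (x axis, kb, log scale), for 2L, 3L, 3R and X. The 3R curve lies to the right, with a median of 94200 bp, and 76 of all 815 distances are within 10 kb.

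Few windows held several dips. Of 1874 windows of 50 kb, 1221 had no dip, 515 had 1, 114 had 2, 20 had 3 and 4 had 4. The first 3 of these 4 windows in arm order differed in what EHMTDD1 did. On 2L from 21550001 to 21600000, 6 dip bins had 0 to 11 EHMTDD1 tags, 15 in all, against 34 EHMT+ tags in all. On 3L from 14950001 to 15000000, 5 dip bins had 16 EHMTDD1 tags in all, against 31 EHMT+ tags. On 3R from 17300001 to 17350000, 5 dip bins had 63 EHMTDD1 tags in all, 1 to 25 per bin, against 32 EHMT+ tags. The 2L and 3L windows thus held fewer EHMTDD1 tags in their dips and the 3R window more.

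The dip bin of each arm with the fewest EHMT+ tags relative to the smaller of its 2 flanks was also low in EHMTDD1. On X from 16460701 to 16461000, EHMTDD1 had 2 tags between flanks of 80 and 67, and EHMT+ had 1 tag between flanks of 66 and 64. On 3R from 3675601 to 3675900, EHMTDD1 had 2 tags between 45 and 104, and EHMT+ had 1 between 49 and 55. These bins lay in stretches of 801 and 754 bp without a read in either library. On 3L from 23259901 to 23260200, EHMTDD1 had 1 tag between 55 and 10, and EHMT+ had 2 between 92 and 76, with 811 bp without a read in either. On 2L from 17336101 to 17336400, EHMTDD1 had 0 tags between 11 and 29, and EHMT+ had 1 between 35 and 39.

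The strongest deepening reached 0 EHMTDD1 tags from 10 EHMT+ tags, which 18 dip bins share, and the 5 named come first in arm order, all on 2L. The Poisson interval of 0 tags reaches 3.69 and that of 10 tags begins at 4.80. These bins were picked as the lowest ratios of the 922 dip bins, so this gap follows from the choice. From 10964701 to 10965000, EHMTDD1 had 0 tags between flanks of 46 and 33, and EHMT+ had 10 between 46 and 27. From 19601101 to 19601400, EHMTDD1 had 0 between 30 and 43, and EHMT+ had 10 between 27 and 40. In these 2 bins the flanks of EHMTDD1 were at or above those of EHMT+. In the bins from 14849701 to 14850000, from 18599401 to 18599700 and from 21416101 to 21416400, 1 EHMTDD1 flank was low too, at 6, 13 and 2 tags, against 29, 28 and 48 tags in EHMT+.

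The strongest filling was on 3R from 3862501 to 3862800. EHMTDD1 had 43 tags there between flanks of 57 and 24, and EHMT+ had 8 between 60 and 28, a ratio of 5.38 (2.50 to 13.2). This bin opens 1 of the 2 runs of 3 dip bins, which reaches 3863400 and had 43, 26 and 12 EHMTDD1 tags, against 8, 10 and 10 EHMT+ tags. On 3R from 21511201 to 21511500, EHMTDD1 had 36 tags and EHMT+ had 7, and from 16929001 to 16929300 EHMTDD1 had 33 and EHMT+ had 7. On X from 436201 to 436500, EHMTDD1 had 33 and EHMT+ had 7, and on 2L from 16437001 to 16437300 EHMTDD1 had 28 and EHMT+ had 6. In all 5 bins the interval of the ratio was above 1. They were picked as the highest ratios of 922 bins chosen for low EHMT+ counts, so these intervals follow from the choice. Of the 5, 3 were on 3R. The other run of 3 dip bins, on 3L from 1397401 to 1398300, had 22, 5 and 3 EHMTDD1 tags, against 10, 2 and 5 EHMT+ tags. Of the 99 runs of 2 dip bins, the first in arm order lay on 2L from 2250601 to 2251200, with 19 and 21 EHMTDD1 tags, against 4 and 5 EHMT+ tags.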

How the data were processed

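H3K9me2 ChIP-seq was done on whole larvae, 1 library per genotype. Per the study's methods, the authors sequenced 36-bp single reads, aligned them to BDGP Release 5 (dm3) allowing 1 mismatch, kept unique positions, extended them to 300 bp and equalized both libraries to the smaller total. How tags were drawn is not given in the sources used here. The deposited files hold start, end and strand of each extended tag, with no counts, input or score. From these, tags were counted in 300-bp bins from base 1 of each arm (overlap of at least 1 bp, arm ends from the last tag). Ratios are EHMTDD1 over EHMT+ with a pseudocount of 1. The members and the rule for named bins (per arm the lowest ratio of EHMT+ tags to the smaller flank, 5 most halved, 5 most doubled, 3 densest 50-kb windows, 3 longest runs, ties by arm order) were chosen with earlier results of these data known. The counting and the rule were tested on simulated data. Genes and sequences were not analysed here, because no Release 5 genome or annotation was used. The comparison with other low bins within 1 to 5 and 6 to 10 EHMT+ tags was added after the data were seen. Alternatives covered the grid, limits, flanks, arms, pseudocount and counting. Intervals came from SciPy 1.17.1, counts from NumPy 2.4.6 and pandas 2.3.3 under Python 3.11.15, and plots from Matplotlib 3.10.9.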

Additional observations from a re-analysis of the deposited data

How the results depend on the processing

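No paired analysis was possible because there was 1 library of EHMTDD1 and 1 of EHMT+. Halved dip bins outnumbered doubled dip bins under all 14 alternatives for these shares, by 1.17 to 4.50 times. The same held in the main setting for all bins with a tag, with 41496 halved and 9061 doubled. It also held for the other bins with 1 to 10 EHMT+ tags, with 1943 halved and 1092 doubled. This excess is thus not particular to the dips. The number of dip bins follows the limits, with 158 at 1 to 5 EHMT+ tags and 68 at flanks of 40 tags or more, and the median distance between dips then was 379800 and 728850 bp, and 63000 bp with flanks 5 bins away. The halved share was 38.6% at 1 to 5 tags, 39.7% at flanks of 40, 37.9% with tags counted at the midpoint, 22.9% in bins with at least 1 EHMTDD1 tag, and 28.3% with EHMTDD1 scaled to the EHMT+ total on the 4 arms. The doubled share was 8.82% at flanks of 40 and 20.5% with plus-strand tags only. The ratio of bin to flanks in EHMTDD1 was 0.0985 at 1 to 5 tags, 0.0963 at flanks of 40, 0.247 with flanks 5 bins away, 0.246 on whole arms, 0.283 without X, 0.205 by midpoint and 0.323 without bins that have 400 bp or more without an EHMT+ read. The share that met the rule in EHMTDD1 too was 28.4% on a grid shifted by 150 bp, 28.5% at 1 to 5 tags, 33.8% at flanks of 40, 28.9% with flanks 5 bins away and 38.0% when a neighbouring bin counted. For values other than the number of bins, the cause was not tested. Scaling, single counting of dips and the 400-bp limit were chosen after the data were seen. Counts of 10 tags or fewer per bin limit each single dip.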

Other observations

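The rule leaves out bins without an EHMT+ tag. Between the same high flanks lay 59 such bins. EHMTDD1 had no tag in 45 of them and at most 12 tags in the others, and it had 10 or fewer tags in 58. Where the control library had no tag, the mutant library thus also had few or none.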
